A study of Homo sapiens with 9 samples.

Results

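The genes described here encode the factors that start, extend and end protein synthesis on cytosolic ribosomes, with the kinases, binding proteins and enzymes named after those factors. They were chosen by symbol: names beginning EIF1 to EIF6, EEF1 or EEF2, and ETF1, GSPT1, GSPT2, PABPC1 and PABPC4, with pseudogenes left out. Of 14884 genes with a single symbol on the array, 38 met this rule. EEF1DP3, a transcribed pseudogene, was the 1 symbol left out. EIF4EBP1 and EIF4EBP2 also end in P and a digit, but are protein-coding and were kept, and 36 genes remain without them. Each gene is read from its brightest feature over all 9 arrays, and 2 genes, EIF4B and EEF1G, had a second feature. Genes of eIF2, eIF2B, eIF3, eIF4G, EIF4A1, EIF4A2, the PABPC genes and ETF1 had no feature with a single symbol and are not analysed here.

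The cells were BT-549, a human triple-negative breast cancer line, in 3 groups of 3 arrays each. One group was transfected with a mature miR-150-5p mimic at 50 nM, one with a non-specific negative control small RNA at 50 nM, and one with the lipid reagent Lipofectamine RNAiMAX without RNA (mock). All groups thus received the same lipid, and total RNA was taken at 72 h, after a medium change at 24 h, and read on a whole-transcript array as log2 signals. Whether each sample came from its own culture of this 1 line is not in the labels, so the spread behind the p-values may be technical.

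Cytosolic translation begins when eIF2 brings the initiator tRNA to the small ribosomal subunit, the cap-binding protein eIF4E with eIF4G and the helicase eIF4A loads it onto a capped mRNA, and eIF1, eIF1A and eIF5 help to find the start codon. eIF5B then joins the large subunit. eEF1A delivers each aminoacyl-tRNA, its exchange factor eEF1B recharges it, eEF2 moves the ribosome along, and eRF1 with eRF3 ends the chain. The process is held back in a pair of ways: eIF2 kinases slow it under stress, and unphosphorylated 4E-binding proteins sequester eIF4E until the kinase mTOR complex 1 releases it. In breast and other cancers these factors are widely studied as steps that set protein output.

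Array medians over all features lay between 2.43 and 2.48. Over all features, none of them a replicate of another, arrays of a group had a Pearson's r of 0.981 to 0.989, and arrays of different groups 0.977 to 0.986. The labelled line was checked against markers. VIM, an intermediate filament of mesenchymal cells, read 8.47 to 9.38 and ZEB1 6.67 to 7.33, while ESR1 (1.96 to 2.37), PGR (1.77 to 1.85) and EPCAM (1.64 to 2.01) lay below the array medians, and ALB, CD14, GFAP and PECAM1 read at most 3.05. Of the keratins of epithelial cells on the same list, KRT18 read 7.31 to 7.75 and KRT8 3.44 to 4.27, above the array medians, and KRT5 1.71 to 2.18. ZEB1 was 1 of 8 genes on that list that changed with the mimic. Its change was -0.36 ± 0.08 against the negative control (adjusted p = 0.036 in limma) and -0.58 ± 0.08 against mock (adjusted p = 0.0043 in limma). When single arrays were left out, the first call held only without negative control 2 (adjusted p up to 0.11 otherwise), and the second held in each case. The signal of a feature depends on its probes, so signals are compared between groups for 1 gene and not between genes.

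With the mimic, EEF1A2 and EIF5B rose and EIF4B fell against the negative control. Against mock EIF1AD, EEF1A2 and EEF1G rose and EIF4B fell. EEF1A2, a tissue-restricted form of the elongation factor that carries tRNA, and EIF4B, the cofactor of the eIF4A helicase, were the members that passed in both comparisons. A gene was called changed at an adjusted p under 0.05 in limma over all 14884 genes. Of the 38 genes, 3 passed against the negative control (2 higher and 1 lower), where 3.18% of all genes passed, 1.76% higher and 1.42% lower. Against mock 4 passed (3 higher and 1 lower), where 3.9% of all genes passed, 2.28% higher and 1.62% lower. These are 7.89% and 10.5% of the members. After quantile normalization once more, the calls over all genes were 176 higher and 289 lower against the negative control, and 231 higher and 287 lower against mock, so the split over all genes turned round (262 and 211, and 339 and 241, as deposited). In the negative control against mock 0 members passed in limma, where 0.645% of all genes passed, and 5 had an unadjusted p under 0.05, as did 11% of all genes. The fall of EIF4B and the rise of EEF1A2 against the negative control kept the same direction in all 18 alternatives run for each.

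**Figure D1:**
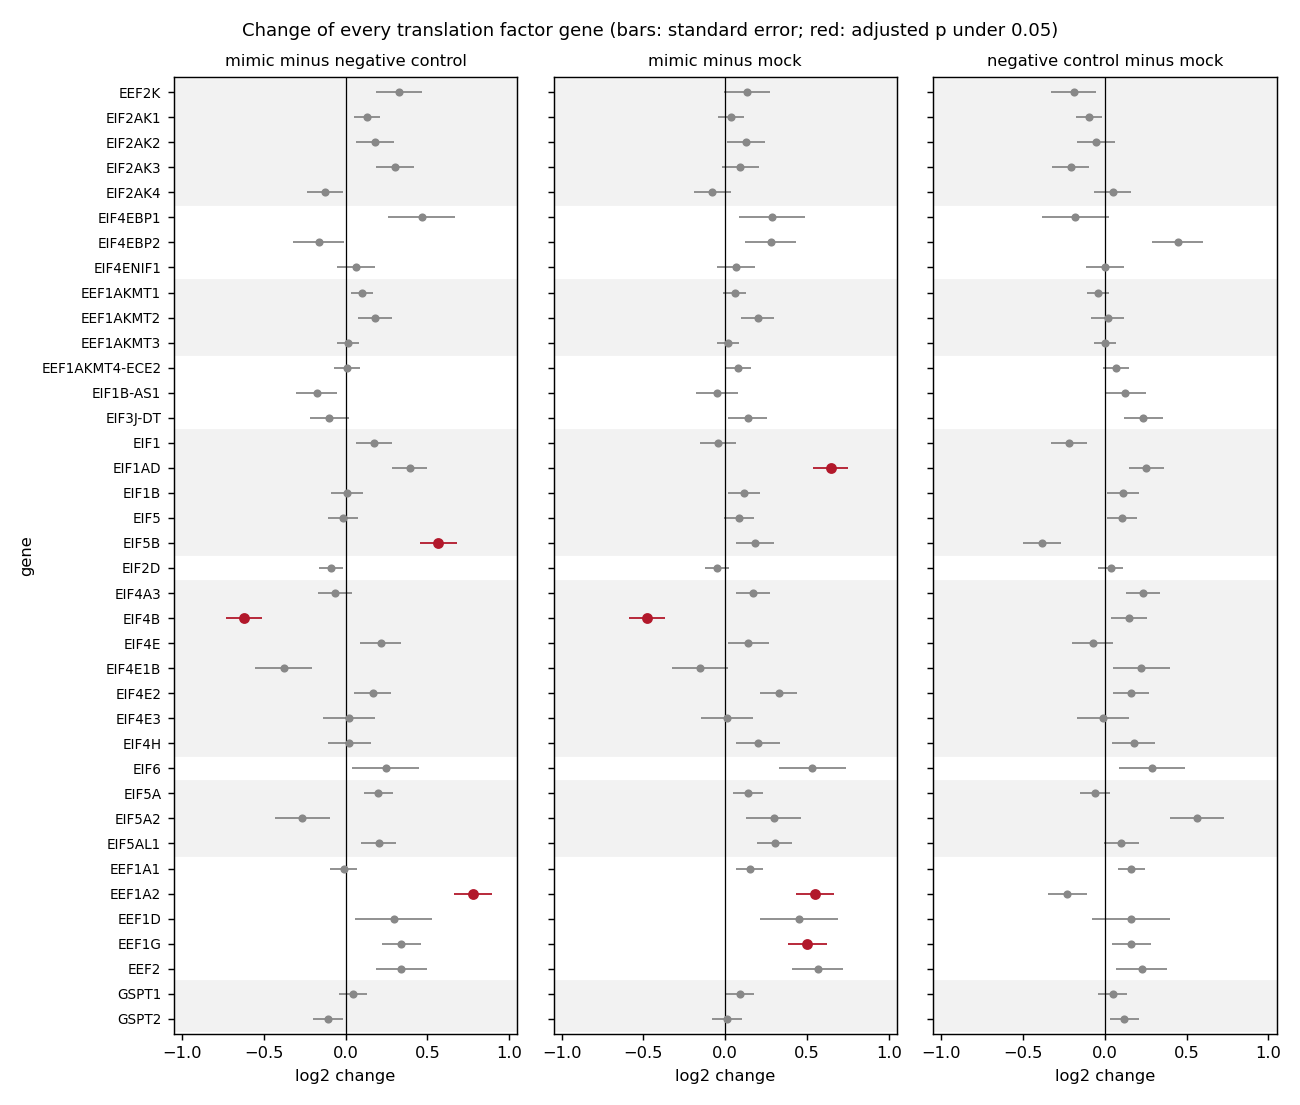
Log2 change of each of the 38 genes (rows, in bands by role) with its standard error, for the mimic minus the negative control, the mimic minus mock, and the negative control minus mock. Red points passed at an adjusted p under 0.05; EEF1A2 and EIF4B did so in both mimic panels, and no gene did so in the panel of the controls.

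EIF4B was the member that fell. Its brighter feature read 7.62, 7.81 and 7.53 on the mimic arrays, against 8.31, 8.15 and 8.36 on the negative control arrays and 8.11, 7.99 and 8.29 on the mock arrays. All 3 mimic arrays lay below all 6 control arrays, as they did for 3.79% of all genes and for no other member. The change was -0.62 ± 0.11 against the negative control (1.54-fold lower, SE, n = 3 per group, adjusted p = 0.018 in limma). Against mock it was -0.48 ± 0.11 (1.39-fold lower, adjusted p = 0.047 in limma). The negative control and mock arrays of this feature overlapped (0.15 ± 0.11, adjusted p = 0.71).

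The dimmer feature of EIF4B fell further. It read 4.51, 4.95 and 5.12 on the mimic arrays, against 6.08, 6.17 and 6.03 on the negative control arrays and 6.83, 6.68 and 6.11 on the mock arrays. Here too the mimic arrays lay apart from every control array. The change was -1.23 ± 0.20 against the negative control (2.35-fold lower, adjusted p = 0.013 in limma over single-symbol features) and -1.68 ± 0.20 against mock (3.2-fold lower, adjusted p = 0.0031 in the same fit). Both features thus fell, while the size differed between them, and which transcripts each one reads is not known here. The call on the brighter feature against the negative control was lost without mimic 1, mimic 3, negative control 1 or negative control 3 (adjusted p up to 0.072). It was also lost with the replicate number as a block. Against mock it was lost without each array except negative control 2 (adjusted p up to 0.15), and also with the arrays centred on their medians. The call against mock was lost too with robust variance and a trend, on only the 6 arrays compared, and with that block.

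**Figure D2:**
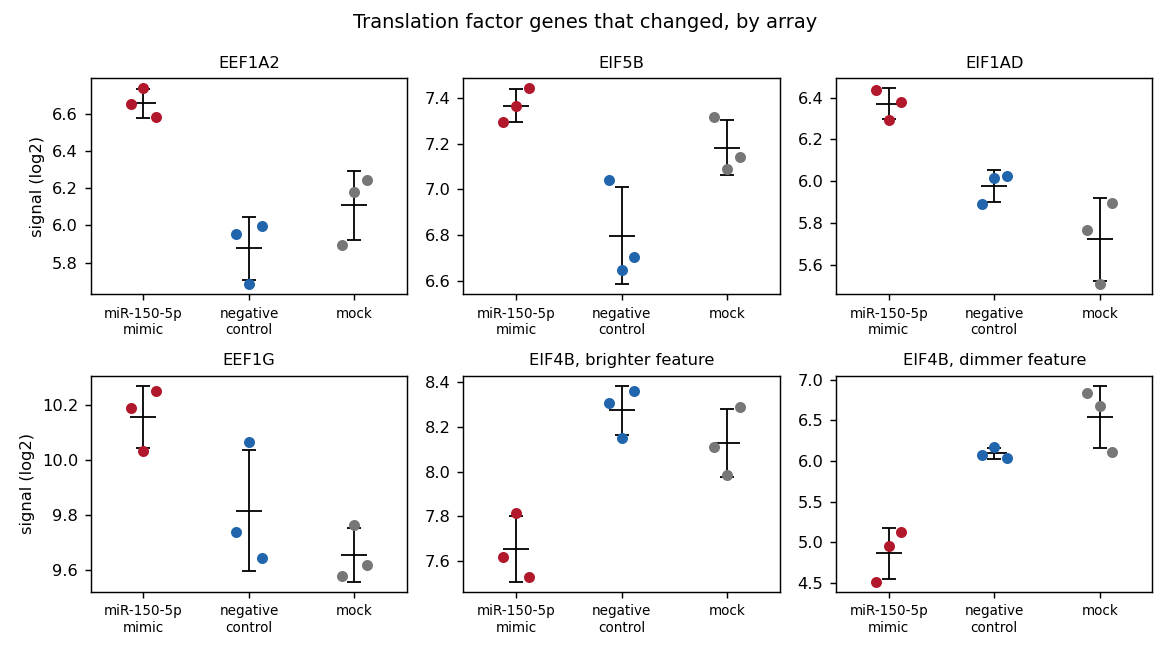
Log2 signal on each array (points) with the mean and SD of 3 arrays (bars) for the members that changed, in the mimic, negative control and mock groups; the vertical scale differs between panels and does not begin at 0. The mimic points lie apart from both controls for EEF1A2, EIF1AD and both EIF4B features, while for EIF5B they overlap mock and for EEF1G they overlap the negative control.

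Several genes of this family carry a run of C and T at the very start of the mRNA, a 5′ terminal oligopyrimidine tract, through which mTOR complex 1 and the protein LARP1 control their translation. The windows below, from RefSeq (GRCh38.p14), show 20 bases before and 10 from the annotated start for EIF4B, which fell, for EEF1A1 and EEF2, and for the changed genes EIF5B, EIF1AD and EEF1G. Capitals mark the C or T run where the start is a C followed by at least 4 bases that are each C or T.
EIF4B: cgtgattgcctcatccgggtCTTTTgcgtt
EEF1A1: cagtagtcgccgtgaacgttCTTTTTCgca
EEF2: tgagtgttgacgtcagcgttCTCTTCCgcc
EIF5B: cgcttgcgcactgagaactcacaccatatg
EIF1AD: gcctccgagacagcgccggaagtacggttt
EEF1G: ccttctctcccgggcggcttactttgcggc
These windows lie at chr12:53006436-53006465 (plus strand) for EIF4B, chr6:73521023-73521052 (minus) for EEF1A1, chr19:3985454-3985483 (minus) for EEF2, chr2:99337369-99337398 (plus) for EIF5B, chr11:66002148-66002177 (minus) for EIF1AD and chr11:62573882-62573911 (minus) for EEF1G.

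Of the 38 members, 32 matched the RefSeq table of start regions. Of these, 4 had such a start, EEF1A1, EEF2, EIF2D and EIF4B, or 12.5%, against 5.14% of 27305 genes. This count and the capitals above rest on annotated starts taken as exact to the base. An unmarked start, as for EEF1G, therefore does not show that a gene lacks the tract. The changes of the 4 did not run one way: EIF4B fell, and EEF2 (0.34), EEF1A1 (-0.01) and EIF2D (-0.09) did not pass against the negative control. The letters CACGTG, the E-box bound by MYC among others, read the same on both strands and stood in the 300-base window of 10 of the 32 (31.2%), against 8.77% of all genes. They included EIF4E, EIF4A3, EIF4H and EIF4B, where the match overlaps the start window printed above:
EIF4B: gcccgctataatCACGTGattgcctcatcc
This window is chr12:53006422-53006451, plus strand, and the motif begins 22 bases before the start. EIF1B and EIF1B-AS1 also hold the E-box and share 1 divergent start region. CCGGAAGT, the letters of ETS-family sites searched on both strands, stood in 5 of 32 windows (15.6%), EIF1AD among them, against 4.95% of all genes. The 27305 genes are all those with a start region, noncoding loci included, and not only the genes on the array. Members and background are thus unlike sets, and whether the shares differ among similar genes was not tested. A match is a description of letters and not a bound site.

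Of the 5 elongation genes, EEF1A2 rose against both controls and EEF1G against mock. EEF1A2 read 6.65, 6.74 and 6.58 on the mimic arrays, against 5.95, 5.68 and 5.997 on the negative control arrays and 5.90, 6.18 and 6.24 on the mock arrays. All mimic arrays were above all control arrays. The change was 0.78 ± 0.12 against the negative control (1.72-fold, adjusted p = 0.0088 in limma) and 0.55 ± 0.12 against mock (1.46-fold, adjusted p = 0.037 in limma). Against the negative control EEF1A2 passed in all 18 alternatives (adjusted p 0.0043 to 0.041). Against mock it was lost without any 1 mimic array, negative control 1, mock 1 or mock 2 (adjusted p up to 0.11), and with the arrays quantile-normalized once more. It was also lost there on only the 6 arrays compared and with the replicate number as a block.

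EEF1A1, the form that nearly all cells use, did not pass. It read 5.69, 5.53 and 5.52 on the mimic arrays, against 5.57, 5.69 and 5.52 on the negative control arrays and 5.45, 5.45 and 5.40 on the mock arrays. The mimic and negative control arrays overlapped (-0.01 ± 0.08, adjusted p = 0.97), and both groups lay above mock (0.15 ± 0.08 for the mimic, adjusted p = 0.39). EEF1A1 has many processed copies in the genome, so probes of its feature may also read these. Whether EEF1A2 and EEF1A1 changed unequally was not tested.

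EEF1G, a subunit of the eEF1B exchange complex, read 10.19, 10.03 and 10.25 on the mimic arrays, against 9.74, 10.07 and 9.64 on the negative control arrays and 9.58, 9.77 and 9.62 on the mock arrays. The mimic arrays lay above mock, and negative control 2 lay within the mimic range. The change was 0.50 ± 0.12 against mock (1.42-fold, adjusted p = 0.0496 in limma, and 0.052 when adjusted over single-symbol features) and 0.34 ± 0.12 against the negative control (adjusted p = 0.19). The call against mock was lost without each array except negative control 2 (adjusted p up to 0.16). The dimmer feature of EEF1G gave 0.12 ± 0.09 against mock (adjusted p = 0.54 over single-symbol features), and the mean of both features missed. The call was also lost with robust variance and a trend, and with the replicate number as a block.

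EEF2, the translocase, read 11.14, 11.02 and 11.03 on the mimic arrays, against 10.71, 10.61 and 10.84 on the negative control arrays and 10.40, 10.19 and 10.89 on the mock arrays. The mimic arrays were above every control array, but the changes of 0.34 ± 0.16 (adjusted p = 0.33) and, against mock, 0.57 ± 0.16 (adjusted p = 0.082) did not pass. Mock 3 lay above the other mock arrays and all negative control arrays, and without it the change against mock was 0.76 (adjusted p = 0.010 in limma). EEF1D, another eEF1B subunit, read 4.51, 4.97 and 4.77 on the mimic arrays, against 4.16, 4.37 and 4.83 on the negative control arrays and 4.19, 3.90 and 4.80 on the mock arrays. It overlapped in both comparisons and did not pass (0.29 ± 0.24 and 0.45 ± 0.24). The 5 elongation genes had a median change of 0.34 against the negative control, with 4 above 0, and of 0.50 against mock, with 5 above 0. The medians of all genes were -0.004 and 0.0003. Those of genes at or above the median signal, where these 5 read, were 0.05 and 0.06.

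Among the genes named after factors that find the start codon and join the subunits, EIF5B and EIF1AD changed, each against 1 control. EIF1AD is grouped here by its symbol only. EIF5B read 7.29, 7.36 and 7.44 on the mimic arrays, against 7.04, 6.65 and 6.71 on the negative control arrays and 7.32, 7.09 and 7.14 on the mock arrays. The negative control arrays lay below those of both other groups, and the mimic overlapped mock. The change was 0.57 ± 0.12 against the negative control (1.48-fold, adjusted p = 0.032 in limma) and 0.18 ± 0.12 against mock (adjusted p = 0.47). The negative control stood at -0.38 ± 0.12 against mock (adjusted p = 0.23). The call was lost without any 1 mimic array, negative control 2 or negative control 3 (adjusted p up to 0.11), and with quantile normalization once more. It was also lost on only the 6 arrays compared, with the replicate number as a block, and with mock 2 and negative control 2 left out together. It passed in 9 of the 18 alternatives.

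EIF1AD, which carries a domain like that of eIF1A, read 6.44, 6.29 and 6.38 on the mimic arrays, against 5.89, 6.02 and 6.03 on the negative control arrays and 5.77, 5.51 and 5.90 on the mock arrays. The mimic arrays were above every control array. The change was 0.65 ± 0.11 against mock (1.56-fold, adjusted p = 0.013 in limma, and 0.060 without mimic 1). Against the negative control it was 0.39 ± 0.11 and did not pass (adjusted p = 0.089). EIF1, which guards against starting at the wrong codon, read 8.59, 8.78 and 8.59 on the mimic arrays, against 8.56, 8.29 and 8.59 on the negative control arrays and 8.76, 8.55 and 8.79 on the mock arrays. It did not pass (0.18 ± 0.11 and -0.04 ± 0.11), nor did its close relative EIF1B (0.01 and 0.12) or EIF5, which triggers GTP hydrolysis by eIF2 (-0.02 and 0.09, against the negative control and mock in each case).

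In the cap complex EIF4B was the 1 of 7 genes that passed. EIF4E, the cap-binding protein, read 4.95, 5.11 and 5.03 on the mimic arrays, against 4.94, 4.96 and 4.55 on the negative control arrays and 5.06, 4.77 and 4.83 on the mock arrays. These overlapped, and the changes were 0.21 ± 0.13 and 0.14 ± 0.13. EIF4E2, a cap-binding protein linked to repression, stood at 0.17 ± 0.11 and 0.33 ± 0.11, EIF4H, another eIF4A cofactor, at 0.02 ± 0.13 and 0.20 ± 0.13, and EIF4A3, the helicase of the exon junction complex, at -0.07 ± 0.10 and 0.17 ± 0.10. EIF4E1B read -0.38 ± 0.17 and -0.15 ± 0.17, and EIF4E3 0.02 ± 0.16 and 0.01 ± 0.16, both from features below the median signal of all genes (3.34).

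The eIF4E-binding proteins, which block the cap complex, did not pass. EIF4EBP1 read 8.56, 8.62 and 8.30 on the mimic arrays, against 7.69, 8.55 and 7.83 on the negative control arrays and 8.02, 8.32 and 8.28 on the mock arrays. Negative control 2 lay among the mimic arrays and the other two below them. The change was 0.47 ± 0.20 against the negative control (adjusted p = 0.30) and 0.29 ± 0.20 against mock, and without negative control 2 the first was 0.73 (adjusted p = 0.028 in limma). The average signal of 23 small nucleolar or Cajal body RNAs was also highest in its group on negative control 2 (6.83, against 5.91 and 5.87). Mock 2 stood apart in the same way (6.78, against 5.62 and 5.64), and the mimic arrays read 6.43, 5.95 and 6.75. The part of these RNAs in the values of EIF4EBP1 was not tested. EIF4EBP2 read 7.92, 8.34 and 7.87 on the mimic arrays, against 8.14, 8.02 and 8.47 on the negative control arrays and 7.60, 7.81 and 7.88 on the mock arrays. It overlapped the negative control (-0.17 ± 0.16), and the negative control lay above mock in all arrays (0.44 ± 0.16, adjusted p = 0.31). EIF4ENIF1, which carries eIF4E into the nucleus, had exactly 4.45 on all 6 control arrays and 4.64, 4.69 and 4.22 on the mimic arrays.

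Such equal values are common in the deposited table: 19 of the 38 members (50%) and 56.3% of all genes had at least 2 arrays with exactly the same value. Their effect on the estimated spread was not tested. None of EIF4B, EEF1A2, EIF5B, EIF1AD and EEF1G had one in the feature used.

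The kinases did not pass in any comparison. EIF2AK3 (PERK), the kinase of endoplasmic reticulum stress, read 4.55, 4.57 and 4.37 on the mimic arrays, against 4.37, 4.24 and 3.98 on the negative control arrays and 4.53, 4.31 and 4.37 on the mock arrays (0.30 ± 0.11, adjusted p = 0.23, and 0.09 ± 0.11). EEF2K, which inhibits eEF2, read 4.94, 5.21 and 5.09 on the mimic arrays, against 4.92, 4.40 and 4.94 on the negative control arrays and 4.94, 4.94 and 4.95 on the mock arrays. Negative control 2 lay below the other 8 arrays, and the change against the negative control was 0.32 ± 0.14 (adjusted p = 0.29). EIF2AK1 (HRI), the kinase of haem shortage, read 7.11, 7.22 and 7.15 on the mimic arrays, against 6.91, 7.06 and 7.11 on the negative control arrays and 7.11, 7.12 and 7.14 on the mock arrays. EIF2AK1, EIF2AK2 (PKR), the kinase that senses double-stranded RNA, and EIF2AK4 (GCN2), that of amino acid shortage, lay between -0.13 and 0.18 against the negative control and between -0.08 and 0.13 against mock. For PKR the negative control stood at -0.05 ± 0.12 against mock (adjusted p = 0.92), and these groups, of which 1 received a small RNA, overlapped.

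EIF6, which keeps the ribosomal subunits apart, read 6.41, 6.23 and 6.23 on the mimic arrays, against 5.79, 6.55 and 5.79 on the negative control arrays and 5.50, 6.0 and 5.77 on the mock arrays. The mimic arrays lay above mock, while negative control 2 lay above all mimic arrays, and neither change passed (0.25 ± 0.20 and 0.53 ± 0.20). EIF5A2, the second gene of the hypusine-bearing factor eIF5A, read 5.36, 5.35 and 5.30 on the mimic arrays, against 5.43, 5.76 and 5.62 on the negative control arrays and 4.62, 5.35 and 5.15 on the mock arrays. The negative control lay above both other groups (0.56 ± 0.17 against mock, adjusted p = 0.23), and the mimic was at -0.27 ± 0.17 against it. EIF5A (0.20 and 0.14) and its near-identical retrocopy EIF5AL1 (0.20 and 0.30) read below the median signal, and probes of the 2 may share transcripts.

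In termination, GSPT1 (eRF3a) read 7.36, 7.18 and 7.41 on the mimic arrays, against 7.21, 7.31 and 7.29 on the negative control arrays and 7.25, 7.15 and 7.28 on the mock arrays. All groups overlapped (0.04 ± 0.09 and 0.09 ± 0.09). GSPT2, its retrogene copy, read 1.93, 1.93 and 1.82 on the mimic arrays, against 2.14, 1.93 and 1.93 on the negative control arrays and 1.96, 1.91 and 1.77 on the mock arrays. It overlapped in both comparisons (-0.11 and 0.01). EIF2D, which can place tRNA on the ribosome without eIF2, read 1.75 to 1.96 on all 9 arrays, and its groups overlapped. Of the lysine methyltransferases of eEF1A, EEF1AKMT2 read 6.30, 6.11 and 6.38 on the mimic arrays, against 6.11, 6.07 and 6.06 on the negative control arrays and 6.11, 6.18 and 5.89 on the mock arrays. EEF1AKMT2 (0.18 and 0.20), EEF1AKMT1 (0.10 and 0.06) and EEF1AKMT3 (0.02 and 0.02) did not pass. The loci EIF3J-DT, EIF1B-AS1 and EEF1AKMT4-ECE2, whose symbols meet the rule, are divergent, antisense or readthrough transcripts. EIF3J-DT read 4.17, 4.17 and 4.10 on the mimic arrays, against 4.46, 4.24 and 4.03 on the negative control arrays and 4.01, 3.84 and 4.17 on the mock arrays. EIF1B-AS1 read 1.84, 2.17 and 2.29 on the mimic arrays, against 2.27, 2.12 and 2.46 on the negative control arrays and 2.17, 2.17 and 2.12 on the mock arrays. The groups overlapped for both, and the changes of the 3 loci lay between -0.18 and 0.01 against the negative control and between -0.05 and 0.14 against mock.

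Across all 38 genes, small shifts upward outnumbered those downward. Against the negative control 26 members lay above 0, against 48.6% of all genes, with a median of 0.08. Against mock 32 lay above 0, against 50.1% of all genes, with a median of 0.14. The members read brighter than most genes, with 29 at or above the median signal. Among such bright genes the medians were 0.17 and 0.15 for the members, against 0.05 and 0.06 for all 7442. Above 0 lay 21 and 26 of the 29 members, against 4322 and 4411 of the 7442, so bright genes in general leaned upward too. In the negative control against mock 24 of the 38 lay above 0, against 52.1% of all genes, and the 29 had a median of 0.10, against 0.01 for all bright genes. The mean signal of the 38 was 5.48, 5.53 and 5.44 on the mimic arrays, against 5.38, 5.39 and 5.40 on the negative control arrays and 5.31, 5.28 and 5.38 on the mock arrays. Their median signal did not order the groups in this way: 5.52, 5.44 and 5.41 on the mimic arrays, against 5.50, 5.69 and 5.57 on the negative control arrays and 5.30, 5.40 and 5.28 on the mock arrays. Quantile normalization once more brought the median changes to 0.04 and 0.08, with 21 and 29 members above 0. It also turned the split of calls to 1 higher and 1 lower against the negative control and 2 higher and 1 lower against mock. With the arrays centred on their medians, 3 were higher and 0 lower against mock.

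**Figure D3:**
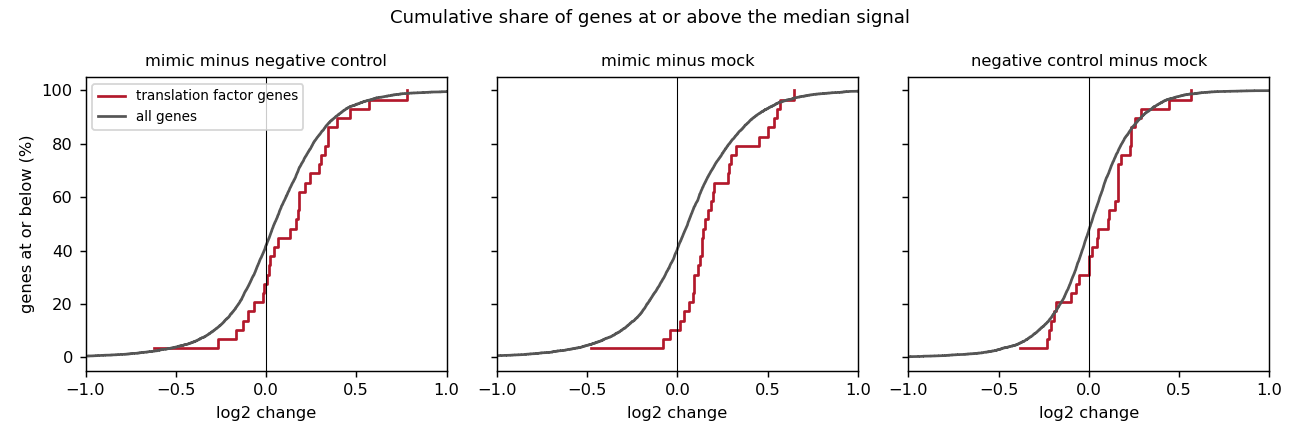
Cumulative share (%) of genes at or below each log2 change, for the 29 translation factor genes and all 7442 genes at or above the median signal. The curve of the factors has medians of 0.17 and 0.15 in the mimic panels, against 0.05 and 0.06 for all genes, and 0.10 against 0.01 in the panel of the controls.

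By arrays that did not overlap, 9 members were apart from the negative control, 6 higher and 3 lower, where 18.6% of all genes were apart (10.3% higher and 8.3% lower), and 10 from mock, 9 higher and 1 lower, where 20.2% were (11.7% higher and 8.52% lower). As shares of the members these are 23.7% and 26.3%. The mimic arrays were above all 6 control arrays for EEF1A2, EIF1AD, EEF2 and EEF1AKMT1, or 10.5% of members, against 5.76% of all genes. EEF1AKMT1 differed by 0.10 from the negative control and by 0.06 from mock, at signals of 2.39 to 2.57.

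Related genes outside the family were read from lists of their pathways. Of 9 measured genes of the integrated stress response, the programme that eIF2 kinases switch on, 2 rose and 0 fell against the negative control, and 0 rose and 1 fell against mock. SESN2, a sestrin that restrains mTOR complex 1, read 6.32, 5.84 and 5.89 on the mimic arrays, against 4.26, 4.86 and 4.86 on the negative control arrays and 5.27, 5.15 and 5.88 on the mock arrays. It rose against the negative control (1.36 ± 0.23, adjusted p = 0.014, and 0.060 without mimic 1) and not against mock (0.58 ± 0.23, adjusted p = 0.22). ASNS, asparagine synthetase, read 6.69, 6.67 and 6.66 on the mimic arrays, against 5.71, 6.31 and 5.91 on the negative control arrays and 7.03, 6.98 and 6.83 on the mock arrays. The mimic lay between the controls. It was 0.70 ± 0.14 above the negative control (adjusted p = 0.027 in limma, and up to 0.097 without any 1 mimic array, negative control 1 or negative control 3) and at -0.27 ± 0.14 against mock. The negative control itself was at -0.97 ± 0.14 against mock (adjusted p = 0.015 in limma, and up to 0.093 without negative control 3 or mock 1). Both ASNS calls were also lost on only the 6 arrays compared (adjusted p = 0.078 and 0.11 in limma).

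DDIT3 (CHOP), a transcription factor of this response, fell against mock in both small RNA groups. It read 3.28, 3.66 and 3.63 on the mimic arrays and 3.53, 3.66 and 3.18 on the negative control arrays, against 4.40, 4.11 and 4.59 on the mock arrays. The change was -0.84 ± 0.16 for the mimic (adjusted p = 0.025 in limma, and up to 0.096 without any 1 mimic array, mock 1 or mock 3) and -0.91 ± 0.16 for the negative control (adjusted p = 0.048 in limma, and up to 0.18 without each array except mock 2). Both comparisons share the mock arrays. With the replicate number as a block, both calls were lost (adjusted p = 0.12 in limma for the negative control). The call of the negative control was also lost with the arrays centred on their medians and on only the 6 arrays compared. It was lost too with mock 2 and negative control 2 left out together. ATF4, the factor that eIF2 phosphorylation induces through translation of its mRNA, did not pass (0.27 ± 0.11 and 0.04 ± 0.11).

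In the mitochondrial list, 1 of 7 measured genes rose in both mimic comparisons. It was MTRF1L, a mitochondrial release factor, at 6.76, 6.83 and 6.78 on the mimic arrays, against 5.98, 6.04 and 6.17 on the negative control arrays and 6.42, 6.12 and 6.26 on the mock arrays. The mimic arrays lay above all control arrays, with changes of 0.72 ± 0.09 (adjusted p = 0.0042 in limma) and 0.52 ± 0.09 (adjusted p = 0.018 in limma, and up to 0.063 without any 1 mimic array). The call against mock was also lost with mock 2 and negative control 2 left out together. These values are from the brightest of 5 features, and the mean of the 5 gave 0.49 against the negative control (adjusted p = 0.0080 in limma). Of 7 enzymes that modify eEF2 or eIF5A, 1 rose against mock and 0 changed against the negative control in limma. That gene was DHPS, which begins hypusine synthesis on eIF5A, with 6.12, 6.21 and 6.13 on the mimic arrays, against 5.90, 5.90 and 5.67 on the negative control arrays and 5.86, 5.63 and 5.55 on the mock arrays. Its change was 0.47 ± 0.10 against mock (adjusted p = 0.038 in limma, and up to 0.11 without any 1 mimic array, negative control 1, mock 2 or mock 3) and 0.33 ± 0.10 against the negative control (adjusted p = 0.13). DPH2 on the same list had larger changes that did not pass. They were 0.83 ± 0.20 against mock (adjusted p = 0.052 in limma) and 0.64 ± 0.20 against the negative control (adjusted p = 0.14 in limma).

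**Figure D4:**
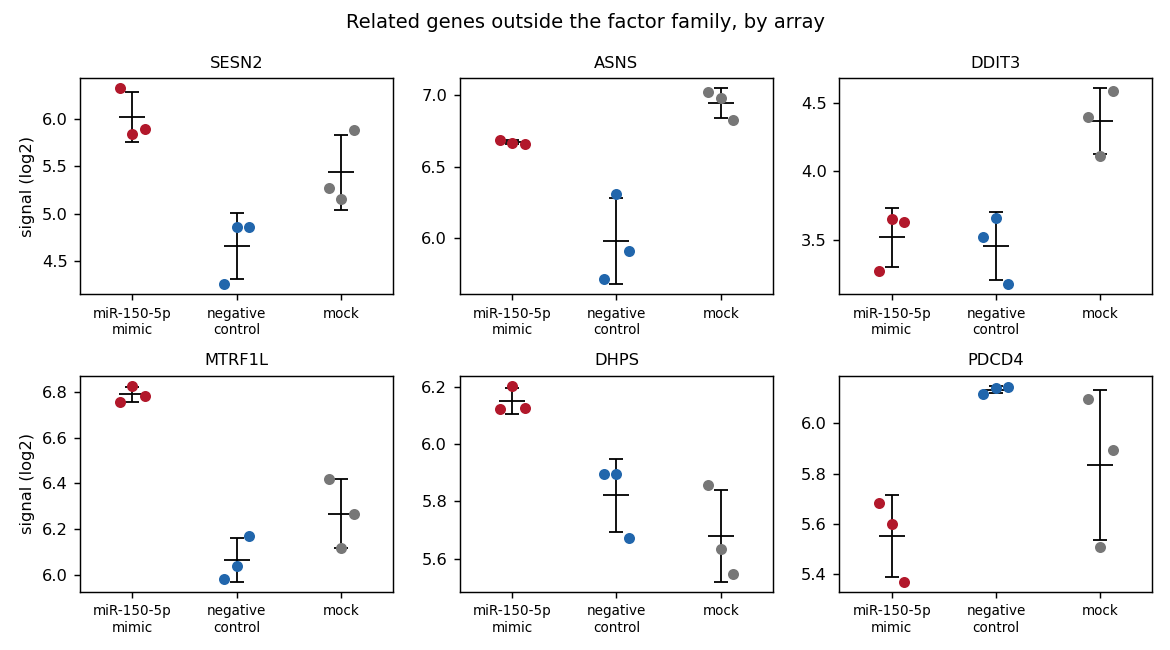
Log2 signal on each array (points) with the mean and SD of 3 arrays (bars) for genes of related pathways, in the mimic, negative control and mock groups; the vertical scale differs between panels and does not begin at 0. MTRF1L and DHPS are highest in the mimic, ASNS and SESN2 are lowest in the negative control, and DDIT3 is highest in mock.

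PDCD4, which blocks the eIF4A helicase that EIF4B assists, read 5.68, 5.60 and 5.37 on the mimic arrays, against 6.12, 6.14 and 6.14 on the negative control arrays and 6.10, 5.51 and 5.89 on the mock arrays. The mimic lay below the negative control in all arrays, but the change of -0.58 ± 0.14 did not pass (adjusted p = 0.064), and mock overlapped (-0.28 ± 0.14). MTOR was at 0.41 ± 0.16 and 0.44 ± 0.16, neither of which passed. In limma 0 of 10 measured genes of mTOR complex 1 and its regulators, RHEB, TSC1 and TSC2 among them, passed in either mimic comparison. At an unadjusted p under 0.05 there were 3 and 2, where 16% of all genes passed against the negative control and 17.5% against mock. Of 12 genes on a list of cap-binding, poly(A) and other initiation partners, 0 passed (1 and 1 unadjusted). NAT1 on that list is by its symbol an acetyltransferase and not a translation factor. Of 7 genes that rescue or recycle stalled ribosomes, 0 passed (3 and 3 unadjusted). All 7 lay above 0 in both, with medians of 0.29 and 0.18. They read above the median signal, where 4322 and 4411 of 7442 genes lay above 0, with medians of 0.05 and 0.06. Whether the 7 differ from such genes was not tested. The largest change among the 7 against the negative control was that of LTN1, the ligase that tags unfinished chains, at 0.48 ± 0.11 (adjusted p = 0.056 in limma).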

How the data were processed

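Per the submitters' processing notes, the authors made the deposited log2 signals with RMA, which corrects background, normalizes between arrays and summarizes the probes of a feature. Which software and probe definitions were used is not stated in the sources. The table held 53617 features on 9 arrays, with 0 missing values. The platform's annotation gave 16098 features exactly 1 symbol, for 14884 genes, and a gene with several features was read from the brightest. All 16098 gene IDs matched RefSeq (GRCh38.p14), used for names and biotypes. Groups follow the labels.

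Genes were fitted with lmFit and eBayes of limma 3.58.1, under R 4.3.3, on all 9 arrays with 1 mean per group, no filter on signal, 6 residual and 9.60 total degrees of freedom. P-values are two-sided and adjusted by Benjamini and Hochberg over all genes of a comparison. The members, roles and pathway lists were chosen with earlier results of these data known. The rule for named genes took members that changed and, in each role, the brightest and the most changed against the negative control, and of each pathway list the changed genes. Other members printed by array were chosen after their values were seen. Same-numbered negative control and mock arrays deviated together (r = 0.15, 0.23 and 0.15), and those with different numbers had r from -0.16 to 0.02. Same-numbered mimic arrays had r from -0.29 to -0.05 with the controls, and differently numbered ones reached 0.24. Evidence for a pairing of the controls is thus from the values alone, and the main fit used no pairing. The replicate block tied all 9 arrays by number, the mimic arrays included. The number of arrays limits the precision.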

Additional observations from a re-analysis of the deposited data

How the results depend on the processing

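None of the changes named as passing reversed its direction in the alternatives run, which were quantile normalization once more, centring on array medians, a filter at the median signal, features averaged per gene, array weights, robust variance with a trend, the replicate block, only the 6 arrays of a comparison, each array left out, and mock 2 and negative control 2 left out together. Their calls were less steady. The 3 members called against the negative control became 1 to 4 when single arrays were left out, and the 4 called against mock became 0 to 4; without mimic 1 they were 1 and 0. With mock 2 and negative control 2 left out together they were 3 and 5. The 3 were not the same members, as EIF5B was lost and EIF4EBP1 gained against the negative control. With the replicate block 1 was called in each (EEF1A2 and EIF1AD). That block also tied the mimic arrays by number, for which the values gave no evidence. Against mock 2 were called with the variance trend and 2 on the 6 arrays alone. In the negative control against mock the count was 0 in all alternatives, the replicate block included, and apart from DDIT3 the block changed no call there. The median change of members against the negative control, 0.08, was 0.039 after quantile normalization and 0.17 at or above the median signal, and that against mock, 0.14, was 0.077 after quantile normalization. The cause was not tested. Without EIF4EBP1 and EIF4EBP2, a choice made after seeing the data, the counts were still 3, 4 and 0. Calls made only in an alternative, among the genes named, were EIF1AD and EIF4EBP1 against the negative control, and EEF2, EIF4E2 and EIF6 against mock, in 1 to 3 of 18 each.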
